A study of Mus musculus with 6 samples.

Results

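The genes described are enzymes of the paths that regenerate NADPH, together with the quinone reductases Nqo1 and Nqo2, in the left ventricle of the mouse heart. They were chosen by name: Nqo1, Nqo2, the pentose phosphate enzymes G6pdx, Pgd, Taldo1 and Tkt, the malic enzymes Me1 and Me3, cytosolic isocitrate dehydrogenase Idh1 and the mitochondrial transhydrogenase Nnt. The choice was made with earlier results of these data known, so the share of these genes called is no independent evidence. Of the 10 genes, 9 had a probe set under their symbol, of 19938 genes named on the array, and G6pdx was not analysed here. A gene was tested where its mean over the 6 arrays reached the dim filter, which 10547 genes did. All 9 did so, and their means were above it in each group too.

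Hearts came from 10-week-old male mice of strain C57/BL6, with no substrain named, and 1 array was run per sample. The 3 arrays of the 2MT group are from hearts excised 4 h after 2-methyl-2-thiazoline at 50 mg/kg under the skin, and the 3 of the saline group are labelled with saline. The treatment text of the saline samples also describes the 2MT injection, so the route and time of the saline dose are not given separately. Nothing in the labels says that each array is a separate animal, so the p-values cover only how these samples vary, and that variation may be technical. The study's stated aim was the mechanism of cardioprotection by 2MT, and the comparison here is 2MT against saline. Values are log2 signals per probe set, so a difference of 1 is a doubling of signal. In bulk tissue, fewer cells of a type and less RNA per cell cannot be told apart.

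NADPH is the reductant with which cells keep glutathione and thioredoxin in their reduced form and build lipids. In the cytosol it is regenerated by the oxidative branch of the pentose phosphate path, by malic enzyme and by isocitrate dehydrogenase, and in mitochondria by the transhydrogenase and by related dehydrogenases. Nqo1 spends NADPH or NADH to reduce quinones in a single step that avoids reactive semiquinones, and it is a textbook target of the antioxidant transcription factor NRF2, as are several pentose phosphate enzymes and Me1.

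Array medians lay between 4.32 and 4.37, and signals over the genes tested correlated at 0.992 to 0.995 within a group and at 0.987 to 0.990 between groups. The 7 cardiomyocyte markers were bright, averaging 12.5 on every array, and gave no call in limma (0 also at an unadjusted p under 0.05). Pecam1 of 6 endothelial markers and Cidea of 6 adipocyte markers on the array fell, by 0.33 and 0.26, with adjusted p = 0.020 and 0.044. Those calls were lost in 6 and 11 of 17 alternatives. Among the endothelial markers 4 of 6 had a higher mean in 2MT, the median difference was 0.05, and 2 had an unadjusted p under 0.05: Pecam1 and Kdr, which was higher by 0.24 without overlap and did not pass. The other 5 adipocyte markers were dim, with signals of 2.14 to 3.96. The summed linear signal of the 6 was 197 to 218 in 2MT and 225 to 248 in saline, and most of it was Cidea. The mean log2 signal of the 6 overlapped between the groups, at 3.91 to 3.98 in 2MT and 3.905 to 4.01 in saline. Of fibroblast, macrophage, erythroid, skeletal muscle, smooth muscle and atrial markers, 0 passed in limma (1, Acta1, at an unadjusted p under 0.05). The smallest p in these lists and the cardiomyocyte list belonged to Dcn, Lyz2, Bpgm, Acta1, Tagln, Myl4 and Actc1, with log2 differences of 0.07, -0.14, -0.14, -0.36, -0.24, -0.55 and 0.08. All 6 neutrophil markers were dim. Saline 3 had the highest erythroid signal, with Alas2 at 7.07 against 5.15 to 5.76 on the other arrays, and saline 2 the highest atrial signal, with Myl4 at 6.47 against 4.80 to 5.13. The part of these markers in the results below was not tested.

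Nqo1, Pgd and Tkt were lower in 2MT hearts, and the other 6 measured genes did not pass. The falls were of near-equal size, between 1.64-fold and 1.72-fold. Beside them, the log2 difference was 0.28 for Nqo2, the relative of Nqo1, and -0.02 for Taldo1, another pentose phosphate enzyme. In limma, adjusted over all 10547 genes, 3 of 9 fell and 0 rose. Of all genes tested 4.63% were called, 2.41% as lower and 2.22% as higher. An unadjusted p under 0.05 was found for 4 of the 9 and for 1873 of all 10547 genes tested. The unadjusted counts of the other lists are to be read against that same share. The groups did not overlap in 3 of the 9, the same genes, against 21.1% of all genes tested. The median difference of the 9 was -0.11, beside 0.0033 over all genes tested. A lower mean in 2MT was found for 6 of the 9, Taldo1 included, and for 48.1% of all genes tested.

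**Figure D1:**
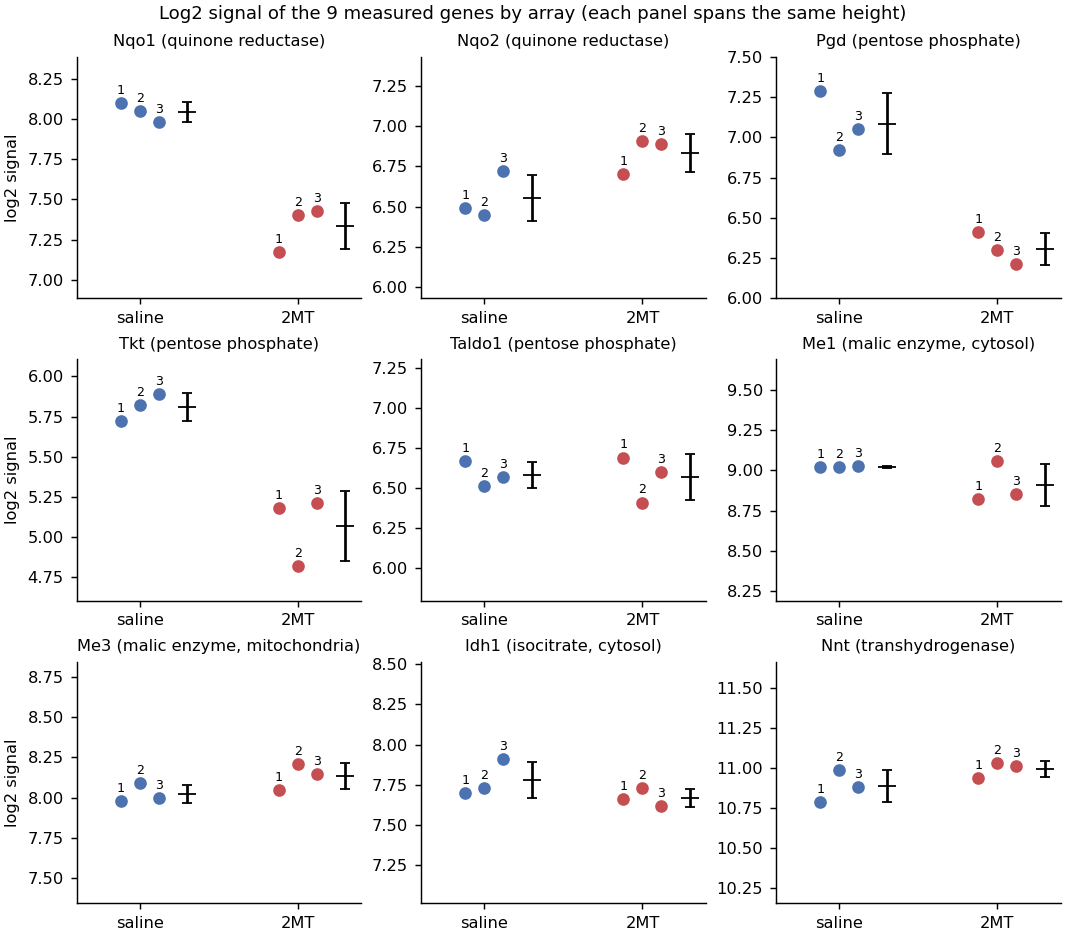
Log2 signal (y axis) of the 9 measured genes in each of 3 saline (blue) and 3 2MT (red) arrays, numbered by replicate, with the mean and SD in black. Every panel spans the same height. Nqo1, Pgd and Tkt leave a gap of at least 0.51 between the groups, and the groups overlap in the other 6 genes.

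Nqo1, the NAD(P)H quinone oxidoreductase of the cytosol, was at 8.10, 8.05 and 7.98 in saline 1 to 3 and at 7.17, 7.40 and 7.43 in 2MT 1 to 3. Every 2MT array lay at least 0.55 below the lowest saline array, and 2MT 1 was the lowest. The mean went from 8.04 ± 0.06 to 7.33 ± 0.14 (SD, n = 3), a fall of 0.71 ± 0.07 (SE) with limma's adjusted p = 6.14e-05. As a fold this is 1.64-fold lower, with a 95% interval of 1.47 to 1.83. By the size of its p, Nqo1 ranked 32 of the genes tested.

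Nqo2, its relative, reduces quinones with dihydronicotinamide riboside and uses NADPH and NADH poorly. Its signal was 6.49, 6.45 and 6.72 in saline and 6.70, 6.91 and 6.89 in 2MT. Saline 3 was just above 2MT 1, so the groups overlapped, and the other 2 saline arrays were below every 2MT array. From saline to 2MT the mean went from 6.55 ± 0.15 to 6.83 ± 0.12 (SD, n = 3), a difference of 0.28 ± 0.09 (SE, 95% interval 0.09 to 0.47) that did not pass limma (adjusted p = 0.093, unadjusted p = 0.0064). Leaving out saline 3 gave 0.36 ± 0.08 with adjusted p = 0.025, and array weights gave 0.31 with adjusted p = 0.043. Over all 17 alternatives the adjusted p ran from 0.025 to 0.294, and all 17 differences were above 0.

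Pgd, 6-phosphogluconate dehydrogenase, makes the second NADPH of the oxidative pentose phosphate branch. It was at 7.29, 6.92 and 7.05 in saline and at 6.41, 6.30 and 6.21 in 2MT. The groups were separated by 0.51, and saline 1 was the highest array. The mean fell from 7.09 ± 0.19 to 6.31 ± 0.10 (SD, n = 3), by 0.78 ± 0.09 (SE) with limma's adjusted p = 2.09e-04, which is 1.72-fold lower (95% interval 1.50 to 1.97). It was the largest fall among the 9 genes. The fall was 0.68 without saline 1 and 0.86 without saline 2, the lowest and highest values with 1 array left out.

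Tkt, transketolase, moves carbon between sugar phosphates in the non-oxidative branch, which links the path back to glycolysis. It was at 5.72, 5.82 and 5.89 in saline and at 5.18, 4.82 and 5.21 in 2MT. The gap between the groups was again 0.51, and 2MT 2 was clearly the lowest array. The mean fell from 5.81 ± 0.09 to 5.07 ± 0.22 (SD, n = 3), by 0.74 ± 0.11 (SE) with limma's adjusted p = 0.00122, a 1.67-fold lower signal (95% interval 1.42 to 1.97). Tkt was the dimmest of the 9 probe sets, and with an offset of 16 added to the linear signal its fall was 0.54, still past the threshold.

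Taldo1, transaldolase, is another enzyme of the non-oxidative branch. It was at 6.67, 6.51 and 6.57 in saline and at 6.69, 6.41 and 6.60 in 2MT. The saline range lay inside the 2MT range, and the saline and 2MT means were 6.58 ± 0.08 and 6.57 ± 0.14 (SD, n = 3). The 95% interval of the log2 difference, -0.20 to 0.16 around -0.02, does not reach the fall measured for Tkt or Pgd (limma's adjusted p = 0.95).

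**Figure D2:**
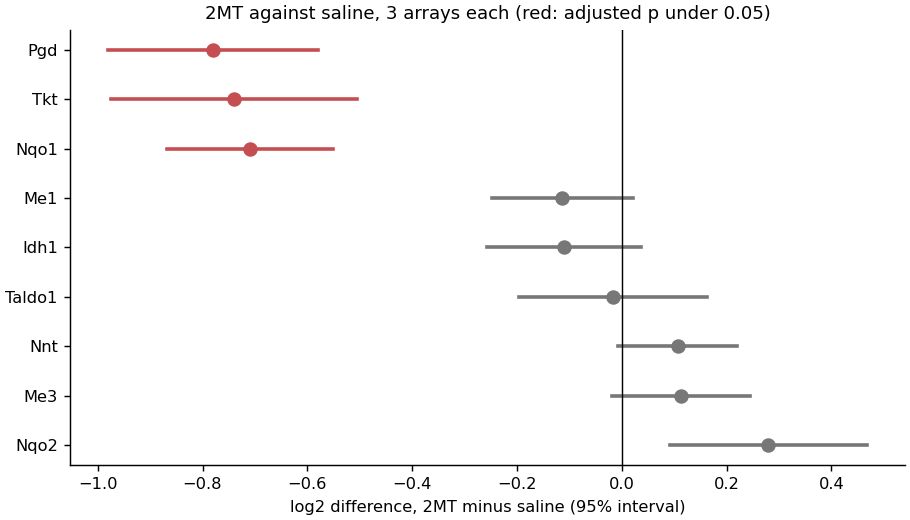
Log2 difference between 2MT and saline for each measured gene (x axis), as the estimate from 3 arrays per group with its 95% interval from limma. The 3 genes in red passed at an adjusted p under 0.05 and their intervals end at -0.51 or below, while the intervals of all others but Nqo2 include 0.

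Me1, the cytosolic malic enzyme, turns malate into pyruvate with release of NADPH. Its brighter probe set was at 9.02, 9.02 and 9.03 in saline and at 8.82, 9.06 and 8.85 in 2MT. 2MT 1 and 2MT 3 were below all saline arrays and 2MT 2 was above them. The difference was -0.11 ± 0.06 (SE, 95% interval -0.25 to 0.02, limma's adjusted p = 0.38), and -0.19 with adjusted p = 0.11 without 2MT 2. A second probe set assigned to Me1 was at 8.77, 8.79 and 8.73 in saline and at 8.68, 8.83 and 8.65 in 2MT. On it too 2MT 2 was the highest of the 6 arrays, and the difference was smaller, at -0.04 ± 0.06 (SE). The other 8 genes had 1 probe set each.

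Me3, the mitochondrial malic enzyme that uses NADP, was at 7.98, 8.09 and 8.0 in saline and at 8.05, 8.21 and 8.15 in 2MT. Only saline 2 reached into the 2MT range. The difference of 0.11 ± 0.06 (SE, 95% interval -0.02 to 0.25) did not pass limma (adjusted p = 0.36).

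Idh1, the NADP-dependent isocitrate dehydrogenase of the cytosol and peroxisomes, was at 7.70, 7.73 and 7.91 in saline and at 7.66, 7.73 and 7.62 in 2MT. Saline 3, the array with the high erythroid signal, stood above the other 5, among which the groups overlapped. The difference was -0.11 ± 0.07 (SE, 95% interval -0.26 to 0.04, limma's adjusted p = 0.43), and -0.045 without saline 3.

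Nnt uses the proton gradient of the inner mitochondrial membrane to pass hydride from NADH to NADP. It was at 10.79, 10.99 and 10.88 in saline and at 10.94, 11.03 and 11.01 in 2MT. The groups overlapped through saline 2, and the difference was 0.11 ± 0.05 (SE, 95% interval -0.01 to 0.22, limma's adjusted p = 0.31). Some C57BL/6 substrains carry a deletion inside Nnt. The labels name no substrain, and a single signal for the gene does not show whether its transcript is whole.

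Setting 2 genes against each other within each array shows whether they changed unequally, and a constant shift of a whole array cancels. In all, 6 pairs of partners were compared, chosen after the values had been seen, each with an exact two-sided permutation test, whose smallest possible p with 3 arrays against 3 is 0.1. The log2 ratio of Nqo1 to Nqo2 was 1.61, 1.60 and 1.26 in saline and 0.47, 0.49 and 0.54 in 2MT. Its mean was lower by 0.99 in 2MT, and the 2MT arrays were close together at 0.50 ± 0.04 (SD, n = 3). The ratio of Tkt to Taldo1 dropped by 0.72 on the log2 scale, that of Pgd to Taldo1 by 0.76, and that of Pgd to H6pd, the hexose-6-phosphate dehydrogenase of the endoplasmic reticulum, by 0.68. The ratio of Me1 to Me3 was 1.04, 0.93 and 1.03 in saline and 0.77, 0.85 and 0.70 in 2MT, a smaller drop of 0.23 without overlap, although neither gene passed by itself. Each of these 5 pairs gave the smallest p, 0.1 by the exact test, or 0.12 adjusted over the 6 pairs. In the pairs with Nqo1, Pgd or Tkt, the separation largely repeats the gap already seen for that gene. As the pairs were picked with the values known, these p-values add no support. The ratio of Idh1 to Idh2, the mitochondrial NADP-dependent enzyme, overlapped between the groups and differed by -0.09 (exact p = 0.8, also adjusted).

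**Figure D3:**
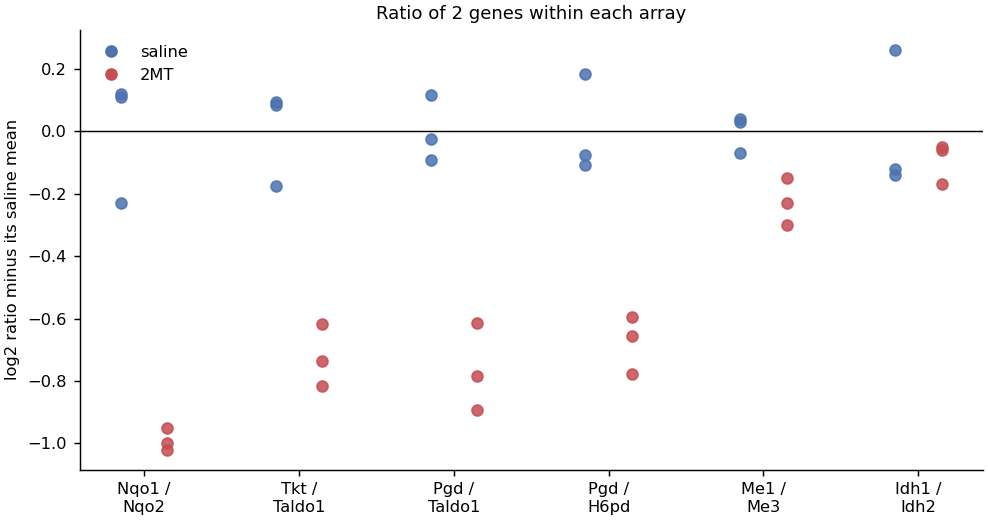
Log2 ratio of 2 probe sets within each array, less the mean ratio of the 3 saline arrays (y axis), for 6 pairs of genes, with saline in blue and 2MT in red. The 2MT arrays lie below all saline arrays in 5 pairs and overlap them for Idh1 over Idh2. For Nqo1 over Nqo2 the group means differ by 0.99.

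For Nqo1, Pgd and Tkt, the genes called as lower in 2MT, the 250 bases before their annotated starts are shown. RefSeq promoter windows on GRCm38.p6, from 250 bases before to 50 bases after a start, were found for 9 of the 10 genes, G6pdx included, as 13 windows. Nnt had none. Both strands of each window were searched for TGACNNNGC, the core of the antioxidant response element that NRF2 binds, and for GGGCGG, the GC box, and matches are in capitals, in the reverse complement where they lie on the other strand. The windows below are chr8:107403206-107403455 (minus strand) for Nqo1, chr4:149166706-149166955 (minus strand) for the first of 2 Pgd starts, and chr14:30548881-30549130 (plus strand) for Tkt.
Nqo1: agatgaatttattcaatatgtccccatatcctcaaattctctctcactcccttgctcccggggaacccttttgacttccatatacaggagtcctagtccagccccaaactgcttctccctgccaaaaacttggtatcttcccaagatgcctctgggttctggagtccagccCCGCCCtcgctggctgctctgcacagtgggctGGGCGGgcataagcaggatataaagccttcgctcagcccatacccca
Pgd: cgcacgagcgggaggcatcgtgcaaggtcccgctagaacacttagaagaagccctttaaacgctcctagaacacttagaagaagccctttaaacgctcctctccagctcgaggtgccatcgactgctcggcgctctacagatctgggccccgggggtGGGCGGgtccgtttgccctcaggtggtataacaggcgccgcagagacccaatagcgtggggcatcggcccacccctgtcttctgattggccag
Tkt: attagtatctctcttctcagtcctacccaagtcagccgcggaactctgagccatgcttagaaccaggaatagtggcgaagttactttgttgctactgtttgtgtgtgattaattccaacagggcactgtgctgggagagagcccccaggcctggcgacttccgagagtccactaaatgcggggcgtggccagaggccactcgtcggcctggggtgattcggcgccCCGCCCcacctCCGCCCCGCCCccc

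None of these 3 windows holds TGACNNNGC, and each holds GGGCGG: Nqo1 at positions -79 and -47, Pgd at -93, and Tkt at -25, -14 and -9, the last 2 sharing a base. Tkt has 2 more GC boxes after its start. Positions count from the start, and the first base before it is -1. TGACNNNGC was found in 3 of the 13 windows, or 23.1%, against 12.4% of all 32851 windows of the same length. Those matches were in G6pdx, in Me1 and at the second start of Pgd, where TGACATTGC began at position 4. GGGCGG was in 9 of the 13, or 69.2%, against 35.7% of all. Of the 6 reference targets of NRF2 described next, 4 had windows, 6 in all, and 3 of those windows held TGACNNNGC. The match at the second start of Pgd, a called gene, is also close to a start and is not shown. Shown are the matches of G6pdx, which has no signal here, and of Me1, which did not pass. Their windows are chrX:74428904-74428963 and chr9:86695890-86695949, both on the minus strand.
G6pdx: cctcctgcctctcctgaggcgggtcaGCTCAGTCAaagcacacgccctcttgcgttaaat
Me1: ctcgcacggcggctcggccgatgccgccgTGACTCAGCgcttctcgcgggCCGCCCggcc

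The other capitals in Me1 are a GC box after the start. In G6pdx the match reads TGACTGAGC on the other strand, at positions -57 to -49, and in Me1 it reads TGACTCAGC across the start, at -6 to 3. These are matches of letters in a short window, and they describe no binding.

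Beside the falls of Nqo1, Pgd and Tkt, the reference targets of NRF2 had larger log2 differences: -1.09 for Txnrd1, -1.49 for Gclm, -1.53 for Gclc, -2.52 for Hmox1 and -2.76 for Srxn1, all called in limma. Osgin1 went from 5.74 ± 0.10 in saline to 4.24 ± 0.31 in 2MT (SD, n = 3), below the dim filter in 2MT, so it was tested only through its saline level and its size is not ranked here. The differences between these sizes were not tested. The target list was made with its changes already known and is no independent evidence.

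The rest of the NADPH economy was described with 7 lists of 85 genes, of which 57 were tested. In limma 2 rose and 4 fell, or 10.5% against the 4.63% of all genes. The lists were chosen with earlier results known, so that share is no independent evidence. The median difference was 0.0033, the same as over all genes tested.

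**Figure D4:**
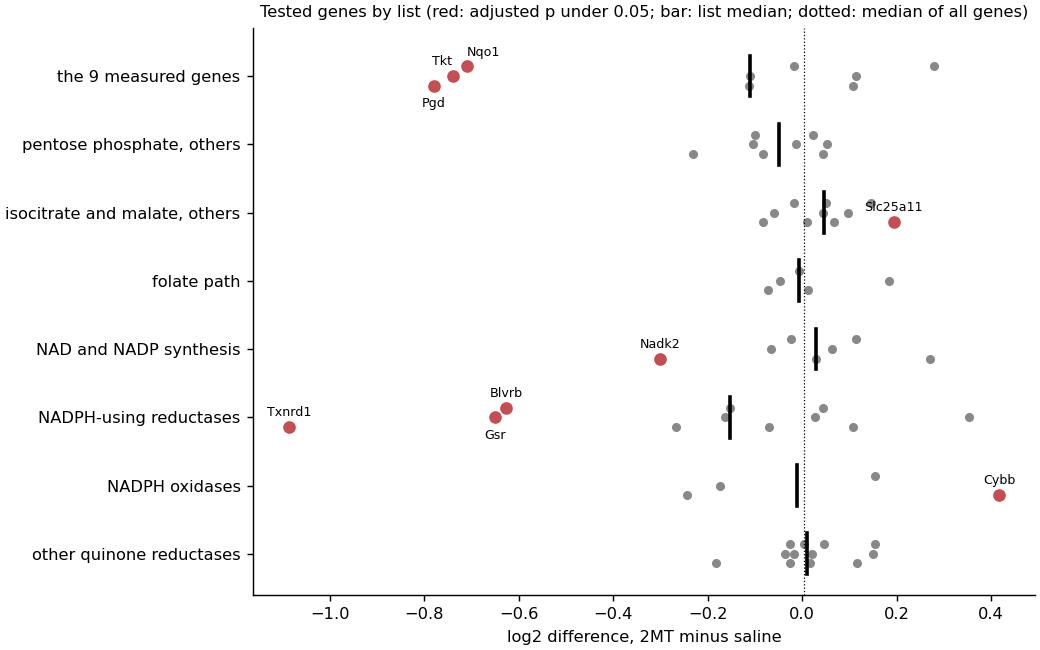
Log2 difference between 2MT and saline (x axis) of each tested gene in the 9 measured genes and 7 lists of related genes, with called genes in red and named, the list median as a bar and the median of all genes as a dotted line. The called falls of -0.63 and beyond are those of Nqo1, Pgd and Tkt and of Txnrd1, Gsr and Blvrb among the reductases that spend NADPH.

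Of 11 tested reductases 3 fell: Txnrd1, thioredoxin reductase, Gsr, glutathione reductase, and Blvrb, biliverdin reductase B. Gsr was at 7.14, 7.13 and 7.08 in saline and at 6.44, 6.47 and 6.49 in 2MT, a fall of 0.65 ± 0.07 (SE) with tight arrays in both groups. Blvrb fell by 0.63 ± 0.08, from 6.50 ± 0.09 to 5.88 ± 0.07 (SD, n = 3). Txnrd1 went from 7.86 ± 0.05 to 6.78 ± 0.06. All 3 kept their call in the 17 alternatives, at adjusted p values of at most 0.00399 in limma. The mitochondrial form Txnrd2 (-0.16, adjusted p = 0.40) and the paralog Blvra (-0.07, adjusted p = 0.74) did not pass. Dhcr7, a late enzyme of cholesterol synthesis, went the other way, from 4.98 ± 0.21 in saline to 5.34 ± 0.07 in 2MT (SD, n = 3), without overlap. Its difference of 0.35 did not pass (adjusted p = 0.089) and did so without saline 3. In all, 5 of the 11 had an unadjusted p under 0.05, beside 1873 of all 10547 genes tested, and the list's median was -0.15.

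Of 4 tested NADPH oxidase genes Cybb, the catalytic subunit of the phagocyte oxidase, rose by 0.42 ± 0.09 (SE, limma's adjusted p = 0.021). It was at 5.32, 5.28 and 5.54 in saline and at 5.81, 5.88 and 5.70 in 2MT, without overlap. Its partner Cyba and the activator Ncf1 had lower means in 2MT, also without overlap, with differences of -0.17 and -0.24 that did not pass (adjusted p = 0.25 and 0.15). The Cybb call was lost in 5 of 16 alternatives: without saline 1 (0.084), saline 2 (0.080), 2MT 1 (0.068) or 2MT 2 (0.106), and with every probe set tested alone (0.051). None of 6 macrophage markers passed in limma (0 also at an unadjusted p under 0.05). Among the 6, 4 had a higher mean in 2MT, and the median difference was 0.055. Their summed linear signal was 611 to 643 in 2MT and 595 to 750 in saline. Lyz2, the brightest of the 6, weighs most in that sum and was lower by 0.14. The part of macrophage number in the rise of Cybb was not tested.

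Other pentose phosphate genes did not pass: 0 of 8 tested in limma (1 at an unadjusted p under 0.05). That gene was Pgls, the lactonase between G6pdx and Pgd, with a saline mean of 6.03 ± 0.10 and a 2MT mean of 5.80 ± 0.07 (SD, n = 3), a difference of -0.23 without overlap (adjusted p = 0.15). H6pd was at 6.36, 6.28 and 6.38 in saline and at 6.26, 6.21 and 6.24 in 2MT, also without overlap, and its difference of -0.10 did not pass (adjusted p = 0.50). The list's median was -0.05.

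Of 10 tested isocitrate, malate and shuttle genes Slc25a11, the mitochondrial carrier that exchanges oxoglutarate for malate, rose by 0.19 ± 0.05 (SE, limma's adjusted p = 0.045). Its signals were 10.28, 10.37 and 10.42 in saline and 10.48, 10.57 and 10.60 in 2MT. The call was near the threshold and was lost in 9 of 17 alternatives, at adjusted p values up to 0.213. These were the fits without saline 1 (0.172), saline 2 (0.097), 2MT 2 (0.149) or 2MT 3 (0.205), with median centring, cyclic loess, no dim filter, every probe set alone or no variance trend. The differences were -0.02 for Idh2, 0.01 for Idh3a, a subunit of the NAD-dependent enzyme, and 0.05 for Me2, the NAD-dependent malic enzyme, with adjusted p values of 0.92, 0.94 and 0.88.

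Of 7 tested genes of NAD and NADP synthesis Nadk2, the mitochondrial NAD kinase that makes NADP, fell by 0.30 ± 0.07 (SE, limma's adjusted p = 0.020). It was at 7.99, 8.16 and 7.96 in saline and at 7.66, 7.79 and 7.76 in 2MT. The groups were apart, and the call was lost without saline 2 (0.084), 2MT 1 (0.081) or 2MT 3 (0.073) and without the variance trend (0.084). The cytosolic kinase Nadk averaged 6.46 ± 0.13 in saline and 6.52 ± 0.06 in 2MT (SD, n = 3), a difference of 0.06 (95% interval -0.11 to 0.24). Nmnat1, the nuclear enzyme that makes NAD from nicotinamide mononucleotide, was at 6.82, 6.66 and 6.88 in saline and at 6.97, 7.13 and 7.07 in 2MT. Its groups were apart, and its difference of 0.27 ± 0.08 (SE) did not pass limma (adjusted p = 0.061).

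Other quinone reductases and ubiquinone enzymes gave 0 calls among 12 tested in limma (1, Cyb5r3, at an unadjusted p under 0.05). Cyb5r3, a cytochrome b5 reductase, was higher by 0.15 ± 0.06 (SE, adjusted p = 0.18). Cryz, the zeta-crystallin quinone reductase, differed by -0.03 and Aifm2, which reduces ubiquinone at the plasma membrane, by 0.0033, with 95% intervals of -0.23 to 0.17 and -0.17 to 0.18. Those intervals do not reach the fall of Nqo1. Of 5 tested genes of the folate path 0 passed in limma (0 also unadjusted), and the smallest p was that of Aldh1l2, with means of 4.47 ± 0.29 for saline and 4.66 ± 0.19 for 2MT (SD, n = 3) and adjusted p = 0.56.

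The calls of Nqo1 and Pgd held in all 17 alternatives and that of Tkt in all 16 that tested it, the stricter dim filter leaving Tkt out. With 1 array left out, the fall ranged from 0.63 to 0.76 for Nqo1 and from 0.61 to 0.81 for Tkt, with adjusted p values of at most 7.24e-04 and 0.0081 in limma. Taldo1 alone changed its sign, to 0.03 without saline 1 and 0.06 without 2MT 2.

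**Figure D5:**
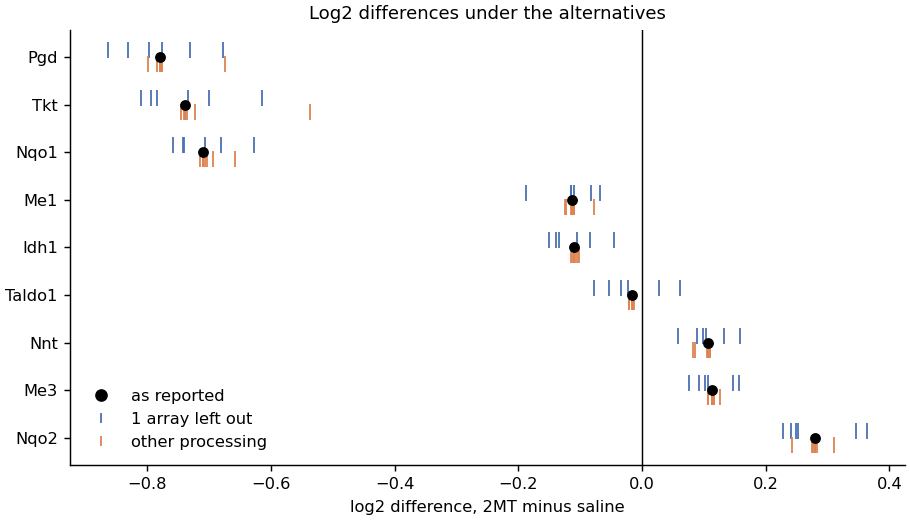
Log2 difference between 2MT and saline (x axis) of each measured gene as reported (black dot), with 1 array left out (blue ticks) and under the other processing choices (orange ticks). The ticks of Nqo1, Pgd and Tkt all stay at -0.54 or below, and only those of Taldo1 fall on both sides of 0.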

How the data were processed

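RNA of left ventricle was measured on 6 Affymetrix arrays, 3 of 2MT and 3 of saline. The authors deposited log2 values, 1 per probe set and array; the base was inferred from their range of 0.51 to 13.5. MAS5 is named, without version or role, per the submitters' processing notes. Scaling and background steps are not given in the sources used here, and no further scaling was applied. The values come with no detection calls, so signal over background is unknown, and the number of arrays limits precision.

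Platform annotation gave 1 symbol to 21789 of 28944 probe sets, several to 1621 and none here to 5534. A gene took its brightest probe set, and genes averaging under 4.345, the median probe set, were dropped as dim. Groups were compared in limma 3.58.1 (R 4.3.3; lmFit, eBayes with variance trend, two-sided), p-values being adjusted by Benjamini-Hochberg over the 10547 genes, with a threshold of 0.05. All adjusted p values come from this fit unless another setting is named. The script was tested on simulated data. Figures used matplotlib 3.10.9.

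The members and lists were chosen with earlier results of these data known. Named are all members, called genes of each list (up to 6), the smallest p where none passed, 6 reference targets of NRF2 and 8 related enzymes; Txnrd2, Blvra, Cyba, Ncf1, Dhcr7, Kdr, Alas2, Nmnat1, Cbr3 and Mthfd2 were chosen after their values were seen, as were the ratios. Alternatives changed scaling, dim filter, offset, probe sets, variance model, replicate block, threshold, or left out an array. Sequences are RefSeq's (GRCm38.p6).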

Additional observations from a re-analysis of the deposited data

How the results depend on the processing

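Nqo1, Pgd and Tkt were called together in 18 of 19 alternatives; the stricter dim filter, a mean of at least 6, tested only the first pair of them and called both. Array weights, a threshold of 0.1 and leaving out saline 3 called 4 genes, Nqo2 being the addition; otherwise the count with 1 array left out was 3. Of 152 single values, 150 kept their sign and 150 their side of the threshold. Genes called over the whole array numbered 488, 292 without the variance trend, and 261 to 646 with 1 array left out (296 without saline 1, 274 without 2MT 2 and 261 without 2MT 3). The 6 related genes called became 3 to 9 with 1 array left out, the 3 without saline 2 being Txnrd1, Gsr and Blvrb, and the 9 coming without saline 3. Same-numbered arrays deviated together with correlations of 0.07, 0.04 and 0.02, so the numbers were not taken as pairs; with the replicate block 586 genes and the same 3 members were called. Saline 3 correlated better with 2MT 2 (0.0396) than with 2MT 3 (0.0223), and every other array correlated best with its own number.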

Other observations

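Of the related genes listed, 19 were under the dim filter. In a fit with no filter 1 of them passed, Cbr3, a carbonyl reductase that also takes quinones. Its mean went from 4.05 ± 0.32 in saline to 3.29 ± 0.12 in 2MT (SD, n = 3), a fall of 0.76 ± 0.15 (SE, limma's adjusted p = 0.017), close to that of Nqo1 in size though on a dim probe set. Mthfd2, the mitochondrial folate dehydrogenase, was at 4.08 ± 0.14 against 4.50 ± 0.17 and did not pass (adjusted p = 0.12).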
